A study of Mus musculus with 4 samples.

Results

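The genes described here encode the protein components of the mitochondrial ribosome, and were taken as the protein-coding genes whose symbol is Mrpl or Mrps followed by a digit. This gave 78 genes of the 50600 in the deposited count tables, of which 49 are named for the large subunit (Mrpl) and 29 for the small subunit (Mrps). RNA was sequenced from mouse regulatory T cells, the CD4+ T cells that restrain immune responses, in 4 libraries of a single group (strain C57BL/6NJ, biological replicates 1 to 4). Age is unknown in the labels and sex was not collected. The sample names inside the files add that the cells were activated and sorted and give a time of 72 h, and a protocol for differentiating CD4+ T cells is linked. No untreated, resting or other cell type was sequenced, so no condition could be compared with another. Each library has its own biosample, yet 1 donor record covers all of them, and whether they stem from separate animals or cultures is not said. The p-values below therefore speak of differences among these samples alone, and those may be technical.

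Mitochondria keep their own ribosomes, which translate the few messenger RNAs of the mitochondrial genome into core subunits of the respiratory chain and the ATP synthase. The ribosomal RNA is made inside the organelle, whereas the ribosomal proteins are encoded in the nucleus, made in the cytosol and imported. Some of these proteins descend from proteins of the bacterial ribosome and others are found in mitochondria alone. Regulatory T cells are known to lean on mitochondrial respiration.

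The libraries held between 32648138 and 94983494 counts, and between 13239 and 13351 genes reached 1 TPM in each (transcript level corrected for gene length and depth). The labelled cell type was checked on its markers: Foxp3, the factor that defines regulatory T cells, stood at 463 ± 25.4 TPM and Il2ra, a receptor of interleukin 2, at 1769 ± 120 TPM (SD, n = 4). Ikzf2 was the lowest of the 5 regulatory T cell markers at 12.97 ± 1.77 TPM. Among B cell markers, Cd79a averaged 0.747 TPM and Ms4a1 stayed under 0.02 TPM in every library. Of the CD8 T cell markers, Cd8b1 was measured at 14.4 ± 2.09 TPM and Cd8a at 0.332 ± 0.274 TPM. The myeloid, NK cell and erythroid markers averaged at most 0.0717 TPM.

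The members are scattered over 17 chromosomes, with 11 on chromosome 11, 8 on chromosome 17 and 7 on chromosome 6. A divergent gene on the opposite strand, with its annotated 5′ end within 1000 bases, was found beside 31 of the 78 members (39.7%), against 17.5% of the 10680 protein-coding genes that reached 1 TPM in every library and 10.5% of all 21764 protein-coding genes. The gene models of a pair could overlap at their 5′ ends, which gives a negative distance. Distances ran from -891 bases, for Mrpl48 and Rab6a, to 935 bases, for Mrpl41 and Pnpla7. Of the 31 neighbours 28 also reached 1 TPM in every library. Mrpl46 and Mrps11, each the neighbour of the other, are both among them. The same share was not computed for neighbours of other expressed genes, so it is no trait of the members. Levels within a pair could lie far apart: Mrpl49 had 83.4 ± 4.89 TPM, and its neighbour Fau, which encodes a protein of the cytosolic ribosome, had 2124 ± 301 TPM (SD, n = 4).

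A single pair joins a gene of each subunit head to head, Mrpl46 and Mrps11 on chromosome 7. Their RefSeq starts, at positions 78783089 and 78783131, lie 42 bases apart. In the deposited gene models the 2 genes overlap, since Mrpl46 runs on to position 78783531 on the minus strand and Mrps11 starts at 78783119. The stretch between the RefSeq starts that lies in no annotated exon is shown because it is common to both promoter windows. It falls in an intron of the longer Mrpl46 model and spans chr7:78783090-78783118 (GRCm38.p6, plus strand, the strand of Mrps11) and holds 79.3% G and C.
Mrps11 and Mrpl46: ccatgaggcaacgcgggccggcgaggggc
The pair was measured at alike levels. Mrpl46 had 74.98, 66.5, 72.5 and 78.6 TPM in replicates 1 to 4, and Mrps11 had 56.5, 50.7, 57.0 and 62.9 TPM. Both were lowest in replicate 2 and highest in replicate 4. This was not particular to the pair: of all 78 members, 38 were lowest in replicate 2 and 40 highest in replicate 4. The order of the 2 genes depends on the length used. With the longest transcript as length Mrpl46 had a mean of 66.0 TPM and Mrps11 of 84.4 TPM.

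Letters that match the binding motifs of 3 factor families known to act on nuclear genes for mitochondrial proteins were searched on both strands of the RefSeq promoters, which reach from 250 bases before to 50 bases after a gene's start. Of the 78 members 69 were in that table. The ETS letters CCGGAAG, bound by GABP (also called NRF2), were in 26 members (37.7%), against 22.3% of 8562 genes at 1 TPM or more in every library and 13.4% of 16469 protein-coding genes. The letters of NRF1, which are GCGCA and GCGC with any 1 base between them, were in 13 members (18.8%), against 12.7% and 7.46%. The letters AANATGGCG of YY1 were in 11 members (15.9%), against 6.63% and 3.83%. At least 1 of the 3 motifs was in 42 members (60.9%), against 36.2% of the genes at 1 TPM or more.

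Against the genes at 1 TPM or more, the share went the other way for the GC box GGGCGG of the Sp factors. It was in 34 members (49.3%), against 70.9% of those genes and 51.1% of all. The E-box CACGTG was in 5 members (7.25%), against 12.1% and 9.18%. The TATA letters TATAAA were in 5 members (7.25%), against 7.73% and 14.3%. A gene held a motif if any of its windows did. Windows per gene differed, with 75 for 69 members, 10896 for 8562 genes at 1 TPM or more and 20095 for all 16469. Per window, Sp was at 52%, against 64.3% and 47.8%. The E-box was at 9.33%, against 10.2% and 8.03%, and TATA at 6.67%, against 6.41% and 12.1%. ETS, NRF1 and YY1 were in 34.7, 17.3 and 14.7% of member windows, against 19.1, 10.8 and 5.43% for genes at 1 TPM or more. Each motif was searched on its own, so matches of different motifs may overlap, and a match is a string of letters, not a measured binding site. Promoters of members had a median of 58.7% G and C, against 61% for the genes at 1 TPM or more. Members with the ETS letters had a median level of 54.2 TPM and the members without them 78.2 TPM. For NRF1 the medians with and without the letters were 79.4 and 59.6 TPM. They were 57.7 and 66.3 TPM for YY1 and 57.2 and 79.4 TPM for Sp. For the E-box they were 121.9 and 63.7 TPM and for TATA 73.2 and 63.7 TPM, each with 5 members that hold the letters. No such difference was tested, and the levels depend on the length used.

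**Figure D1:**
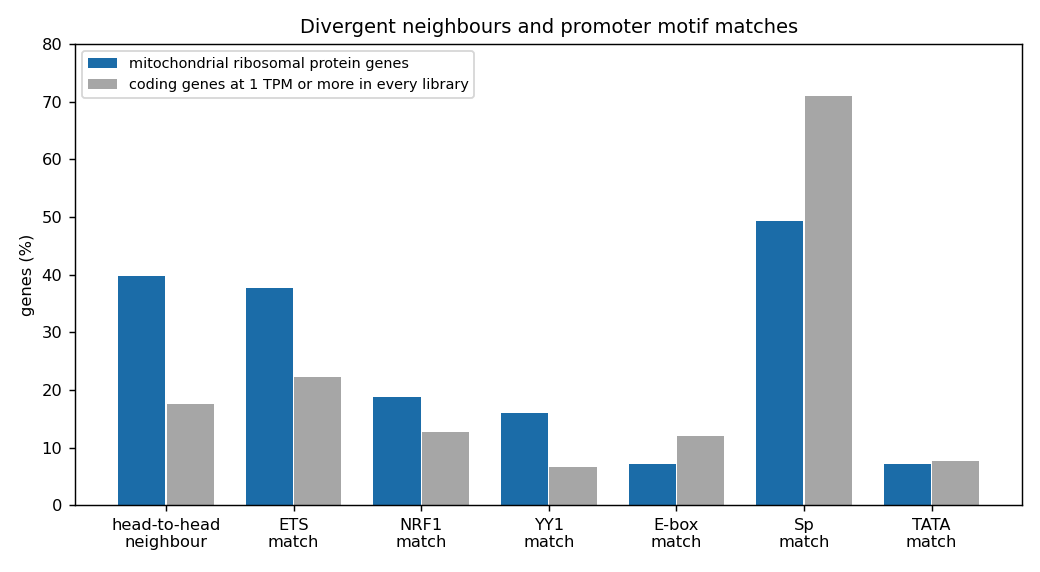
Share of genes (%) with a head-to-head neighbour within 1000 bases or with a motif match in the promoter window, for members (blue, left) and for protein-coding genes at 1 TPM or more in every library (grey, right). The neighbour share is 39.7% of members against 17.5%, and the Sp share is 49.3% of members against 70.9%. A gene counts for a motif if any of its promoter windows holds a match. Neighbours include pairs whose gene models overlap at their 5′ ends.

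The members with the highest levels whose match lies upstream of every annotated exon are shown with 20 bases on each side, the match in capitals, written 5′ to 3′ on the strand of the gene (RefSeq, GRCm38.p6). The ETS matches began 37 bases before the start of Mrpl34 (chr8:71464869-71464915, plus strand), 56 bases before that of Mrpl43 (chr19:45006472-45006518, minus strand) and 47 bases before that of Mrpl52 (chr14:54426842-54426888, plus strand), where the letters read on the opposite strand.
Mrpl34: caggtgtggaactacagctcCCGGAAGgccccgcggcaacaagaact
Mrpl43: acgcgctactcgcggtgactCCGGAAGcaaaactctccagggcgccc
Mrpl52: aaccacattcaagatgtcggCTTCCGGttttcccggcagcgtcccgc
The NRF1 matches began 81 bases before the start of Mrpl12 (chr11:120484536-120484585, plus strand, letters on the opposite strand), 120 bases before that of Mrpl45 (chr11:97315576-97315625, plus strand) and 49 bases before that of Mrpl17 (chr7:105811107-105811156, minus strand).
Mrpl12: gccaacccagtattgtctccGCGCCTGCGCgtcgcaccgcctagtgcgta
Mrpl45: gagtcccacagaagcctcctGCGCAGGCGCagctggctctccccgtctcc
Mrpl17: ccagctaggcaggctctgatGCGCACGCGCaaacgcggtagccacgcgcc
The levels of these genes ranged from 267 ± 32.8 TPM for Mrpl12 to 26.8 ± 1.60 TPM for Mrpl17. No YY1 match met this condition.

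As a group the mitochondrial ribosomal protein genes were expressed at moderate to high levels, and 77 of the 78 reached 1 TPM in every library. The median member stood at 66.3 TPM, with quartiles at 30.3 and 117 TPM, against a median of 21.4 TPM over the 13478 genes tested. Its level was above that of 86.7% of protein-coding genes. A mean of 100 TPM or more was reached by 28 members. Together they took 0.674, 0.618, 0.644 and 0.683% of all TPM in replicates 1 to 4, or 0.655 ± 0.0296% (SD, n = 4). As a share of counts, with no correction for length, this was 0.378 ± 0.0181%.

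By comparison, the 76 genes for proteins of the cytosolic ribosome, which makes the proteins of the rest of the cell, had a median of 1182 TPM and the 75 nuclear genes for subunits of the respiratory chain and ATP synthase a median of 191 TPM. The cytosolic list ran from Rplp1 at 10770 ± 1197 TPM, Rpl8 at 8686 ± 585 TPM and Rplp0 at 7000 ± 399 TPM down to Rpl35a at 229 ± 16.1 TPM and Rpl24 at 109 ± 14.5 TPM. The respiratory list ran from Atp5b, a catalytic subunit of the ATP synthase, at 1494 ± 26.0 TPM, Cox8a at 1425 ± 131 TPM and Atp5a1 at 1274 ± 22.6 TPM down to Ndufb4 at 10.4 ± 2.09 TPM and Atp5l at 5.22 ± 0.98 TPM. Genes of these kinds often have near-identical copies elsewhere in the genome, and reads that map to several places were not counted, so their single low values are uncertain.

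**Figure D2:**
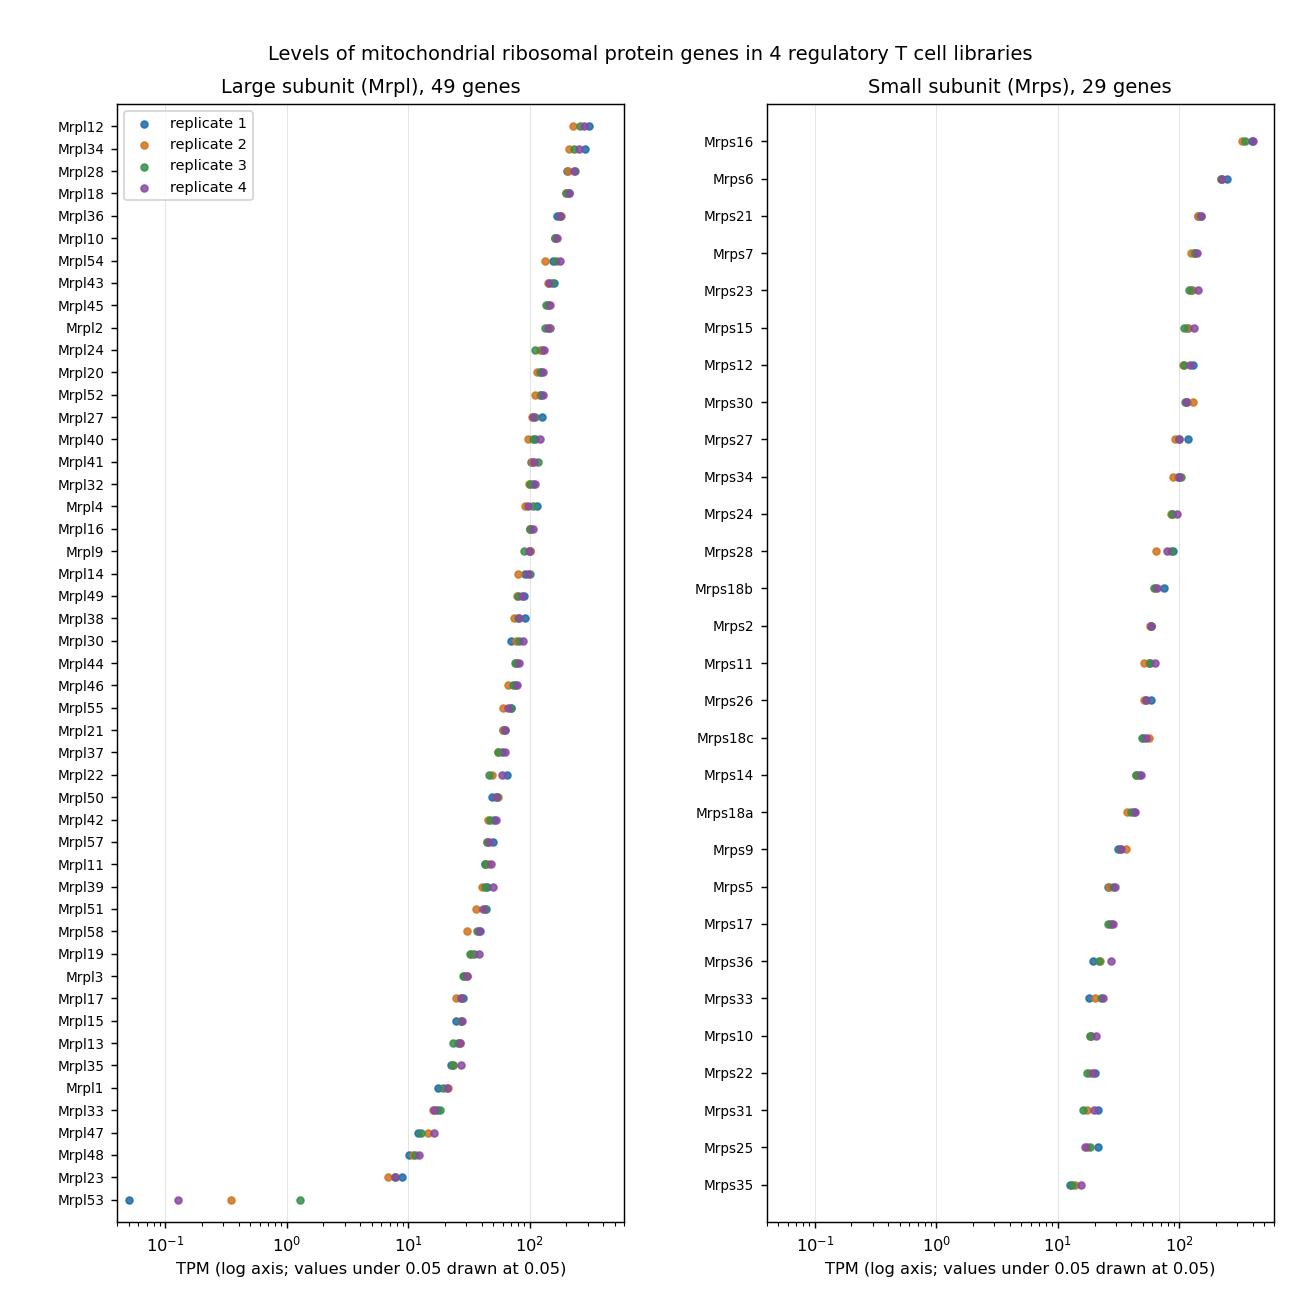
TPM of each member in the 4 libraries (log axis, 1 colour per replicate), large subunit left and small subunit right, sorted by the mean. Points of a gene lie close together against the span between genes, with the exception of Mrpl53 at the bottom of the large subunit.

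Among large subunit genes the highest was Mrpl12, on chr11:120484613-120489065 (mm10, plus strand), which encodes a protein of the stalk that recruits translation factors. Mrpl12 had 304, 225, 260 and 277 TPM in replicates 1 to 4. It was highest in replicate 1 and lowest in replicate 2. Mrpl10, which anchors Mrpl12 to the ribosome, had 161, 160, 160 and 167 TPM. The spread of Mrpl10 between libraries was small, with a coefficient of variation of 2.03%, against 12.3% for Mrpl12.

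Other large subunit proteins of bacterial descent followed. Mrpl34 had 283, 211, 230 and 253 TPM in replicates 1 to 4, with the same order of libraries as Mrpl12. Mrpl28 had 201, 205, 236 and 232 TPM, and here replicate 1 was the lowest. Mrpl18, a protein of the central protuberance, had 208, 198, 196 and 210 TPM. Mrpl36 had 167, 180, 176 and 178 TPM. The highest large subunit proteins without a bacterial counterpart were Mrpl54, with 155, 134, 163 and 177 TPM, and Mrpl43, with 157, 141, 151 and 143 TPM.

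Among small subunit genes Mrps16, on chr14:20391231-20393555 (mm10, minus strand), led with 396, 325, 347 and 406 TPM in replicates 1 to 4 and was the highest member in every library. Mrps6, the counterpart of bacterial protein S6, had 244, 220, 218 and 224 TPM. Mrps6 stayed among the 10 highest members under each of 3 lengths. Mrps6 shares 15.1% of its exon bases with Slc5a3 on the same strand, and reads in shared bases were counted for neither gene.

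There are 3 genes that code for relatives of bacterial protein S18, and the mitochondrial proteins sit at different places in the ribosome. Mrps18b had 74.2, 63.4, 62.0 and 65.8 TPM in replicates 1 to 4, Mrps18c had 49.8, 56.2, 49.1 and 53.5 TPM, and Mrps18a had 42.0, 37.04, 39.997 and 43.2 TPM. The ranges of the 3 genes did not overlap, so that Mrps18b stood above Mrps18c and Mrps18c above Mrps18a in every library. This order does not outlast the choice of length: with the longest transcript Mrps18a stood at 122 ± 7.93 TPM, Mrps18b at 92.9 ± 8.0 TPM and Mrps18c at 49.5 ± 3.18 TPM. Mrps18c shares 23.2% of its exon bases with the gene Gm43511 on the same strand. Mrps18a and Mrps30 carry small subunit names, although structures of the mammalian mitochondrial ribosome place both proteins in the large subunit. Mrps30 had 116, 129, 110 and 114 TPM, highest in replicate 2, the library in which 38 of the 78 members were lowest.

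At the low end, Mrpl53 was the single member under 1 TPM, with 0, 6, 30 and 1 counts, or 0, 0.347, 1.29 and 0.126 TPM, in replicates 1 to 4. The 0 and the 1 count lie under the floor of 3 counts set for a library, a floor that covers counting error only. Mrpl53 (chr6:83109040-83109939, plus strand) shares 88.0% of its exon bases with Gm42688, a gene that runs through it on the same strand and that had 2.09 ± 0.232 TPM. Reads that fall on exons of 2 genes were not assigned in the deposited counts, so the true level of Mrpl53 cannot be read from them. Of all members 8 share exon bases with a gene on the same strand, and 5 share over 10%. Mrps34 shares 36.97% with Nme3 and Mrps24 shares 15.4% with Urgcp, and their levels of 96.9 ± 6.48 and 88.7 ± 4.58 TPM leave those reads out.

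The next lowest members were counted well. Mrpl23 had 8.80, 6.77, 7.76 and 7.83 TPM in replicates 1 to 4, and Mrpl48 had 10.2, 10.95, 11.4 and 12.3 TPM. Mrps35 had 12.5, 13.8, 13.1 and 15.5 TPM, and Mrpl47 had 12.1, 14.6, 12.7 and 16.1 TPM. Outside Mrpl53, the lowest count of any member in any library was 350, for Mrps36 in replicate 4. Mrps36, a protein known also as a component of the 2-oxoglutarate dehydrogenase complex, had 19.5, 22.4, 21.6 and 27.3 TPM.

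The levels turned on the length used for each gene. The TPM values above divide by the merged exon length of the deposited files, whose median over members was 2080.5 bases, while the longest protein-coding transcript of each member in GENCODE M21 had a median of 1327.5 bases. Over the 78 members the Spearman correlation of TPM with merged length was -0.70. TPM divides by that same length, so a negative value is favoured by construction. For CPM, which are scaled to depth and carry no length, the correlation with merged length was 0.19. TPM by the 2 lengths correlated with a Spearman value of 0.70. These describe genes of the same libraries, which are not independent, and both measures of TPM share their counts. The counts were made over the merged exons of M13, so a level by transcript length divides them by another stretch than the one counted. It is given to show how far a level depends on the length, not as an equal estimate. TPM are shares of a total and the length of every gene was replaced, so levels also shifted together. Mrpl34, with 607 bases by both lengths, went from 244 ± 31.0 TPM to 177 ± 22.8 TPM with the longest transcript.

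With the longest transcript, 9 members came out over 2-fold higher. Mrpl33 stood at 188 ± 11.9 TPM, against 17.0 ± 1.09 TPM with the merged length of 7326 bases. Mrps10 stood at 99.9 ± 4.79 TPM, against 19.04 ± 0.97 TPM, and Mrpl42 at 196 ± 12.7 TPM, against 49.0 ± 3.25 TPM. Mrpl23, Mrpl13, Mrps18a, Mrps9, Mrps22 and Mrpl37 were the others.

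Another 3 members came out over 2-fold lower with the longest transcript, by construction: their M21 transcripts exceed the merged M13 exons, and reads on the added bases were not counted. Mrps16 stood at 58.6 ± 6.16 TPM by its M21 transcript of 2572 bases, against 369 ± 38.9 TPM by the 566 bases that were counted. Mrpl32 stood at 19.1 ± 0.93 TPM, against 104 ± 5.18 TPM, and Mrps30 at 40.6 ± 2.94 TPM, against 117 ± 8.18 TPM. Mrpl12, Mrpl34, Mrps6, Mrpl28 and Mrpl18 were among the 10 highest members by the merged length, the longest transcript and the APPRIS principal transcript alike. Mrps25, Mrpl47, Mrps35, Mrpl48 and Mrpl53 were among the 10 lowest by all 3.

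**Figure D3:**
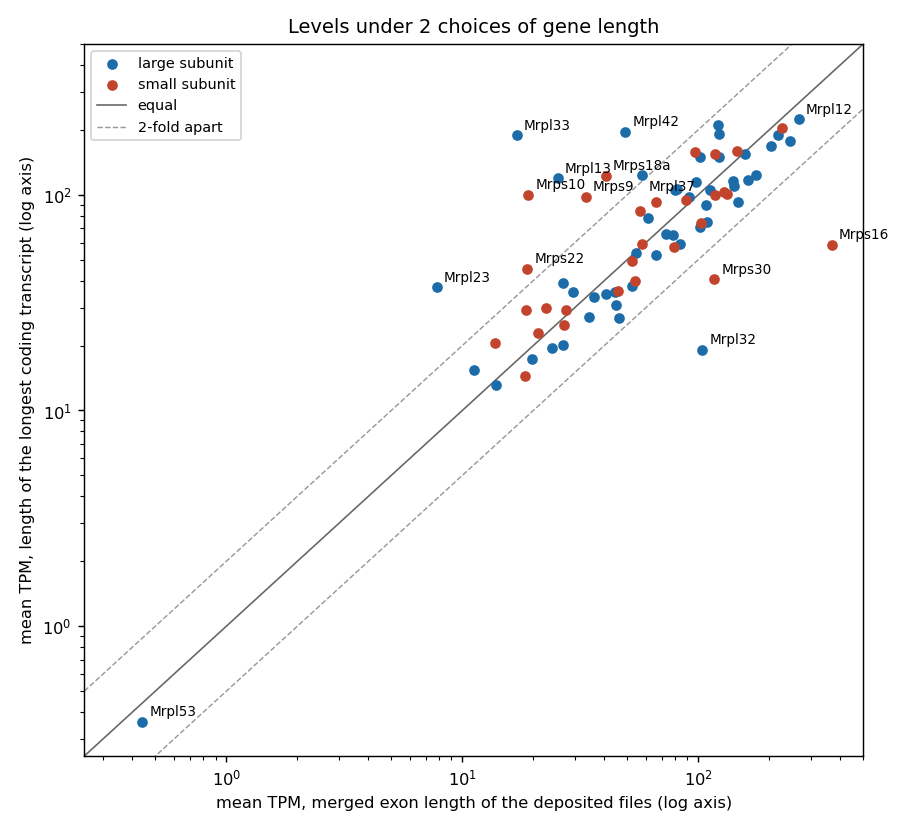
Mean TPM of the 78 members with the longest coding transcript as length (y axis) against mean TPM with the merged exon length (x axis), both log axes, large subunit blue and small subunit red. The solid line marks equal values and the dashed lines a 2-fold difference. Mrpl33 lies farthest above and Mrps16 farthest below.

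Large subunit genes had higher per-length levels than small subunit genes in the median. The median member had 74.98, 73.7, 75.02 and 81.2 TPM in the large subunit in replicates 1 to 4, against 58.1, 56.2, 57.0 and 58.6 TPM in the small subunit. On the scale log2(TPM + 1), the difference of medians was 0.36, 0.38, 0.39 and 0.46, or 0.40 ± 0.04 (SD, n = 4), above 0 in 4 of 4 libraries. It was 0.34 ± 0.06 with the longest transcript. In CPM, without length, the direction turned, with a difference of -0.14 ± 0.04 and 0 of 4 libraries above 0. The mean over members, in place of the median, differed by 0.11 ± 0.02. The quartiles overlapped widely, at 36.0 and 121 TPM in the large and at 27.0 and 117 TPM in the small subunit.

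In sum, large subunit genes held 0.423 ± 0.0186% of TPM from 49 genes and small subunit genes 0.232 ± 0.0112% from 29 genes. The ratio of the sums was 1.81, 1.82, 1.86 and 1.82 in replicates 1 to 4, or 1.83 ± 0.0242. The libraries thus differed in the ratio by much less than in the shares themselves.

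Genes for proteins that ribosomal nomenclature names for a bacterial counterpart had a higher median than those it names as mitochondria-specific, while the 2 classes overlapped widely. The medians over the 46 genes with a bacterial counterpart were 78.8, 70.6, 83.6 and 83.3 TPM in replicates 1 to 4, against 58.8, 54.7, 54.3 and 57.6 TPM over the 32 mitochondria-specific genes. The same order held in each library and with the longest transcript, at 95.9 against 62.1 TPM, and in CPM, at 49.8 against 40.4. The quartiles were 30.3 and 122 TPM with a bacterial counterpart, against 32.7 and 104 TPM without, so that the lower quartile went the other way. Within the large subunit the medians were 85.5 TPM for 30 genes and 73.2 TPM for 19 genes, and the lower quartiles were 27.4 and 45.2 TPM. The difference was not tested. Within the small subunit they were 68.5 TPM for 16 genes and 40.6 TPM for 13 genes. Mrps18a and Mrps18b, whose names are of the mitochondria-specific kind despite their relation to S18, were counted there.

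No member passed the test for a spread between the 4 libraries beyond that typical of genes of its abundance. The test was edgeR's goodness-of-fit test of each gene against the trended dispersion, with Benjamini-Hochberg adjustment over 13478 genes, and it called 0 of the 77 members tested at an adjusted p under 0.05. Over all genes tested it called 51, or 0.378%, and against so low a share 0 of 77 is no result about the members. An unadjusted p under 0.05 was found for 2 members and 805 of all genes, and with DESeq2's dispersion trend 0 members were called and 2 had such a p. Counts were also simulated for 13478 genes, each with exactly the dispersion of the trend, which real genes need not have. Some genes at 5 CPM or more were given a change in 1 library. Of these, 14% were recovered at 1.5-fold, 89% at 2-fold and 98% at 4-fold. Among 13278 unchanged genes 9 were called.

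The lowest p-values among members were those of Mrpl12 (adjusted p = 0.385, edgeR) and Mrpl34 (adjusted p = 0.763, edgeR), both highest in replicate 1 and lowest in replicate 2. On the log2 scale of TMM-scaled CPM, the span between a member's highest and lowest library had a median of 0.25 and reached at most 0.54, in Mrps28. No member of the 77 spanned more than 1, a 2-fold difference, whereas 1630 of the 13478 genes tested did. The median span of all genes tested was 0.31. Neither comparison was matched for abundance. Mrps36, the lowest of the members tested, averaged 8.94 CPM, while the genes tested went down to 0.208 CPM.

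The coefficient of variation of TPM over the 4 libraries had a median of 6.64% over members, against 9.89% over all genes tested. It was under 10% for 63 of the 78 members and lowest for Mrps2, at 0.73%, with 58.1, 57.6, 57.9 and 58.6 TPM in replicates 1 to 4. As spread falls with abundance, the genes tested were put in 10 equal bins by mean CPM. Of the 77 members tested 48 had a coefficient below the median of their bin.

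The members with the largest spread, at a mean of 5 CPM or more, were not called. Mrpl22 had 64.9, 48.3, 45.7 and 59.2 TPM in replicates 1 to 4, with a coefficient of variation of 16.5%. Its values fell in a higher and a lower pair. Mrps36 followed at 14.6% and was highest in replicate 4. Mrps28 had 88.2, 64.0, 85.1 and 78.6 TPM (13.6%), with replicate 2 lowest. Mrpl47 came next at 13.4%, and Mrps31 had 21.5, 17.4, 16.1 and 19.7 TPM (12.8%). Their adjusted p-values in edgeR's test lay between 0.942 and 1.00.

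**Figure D4:**
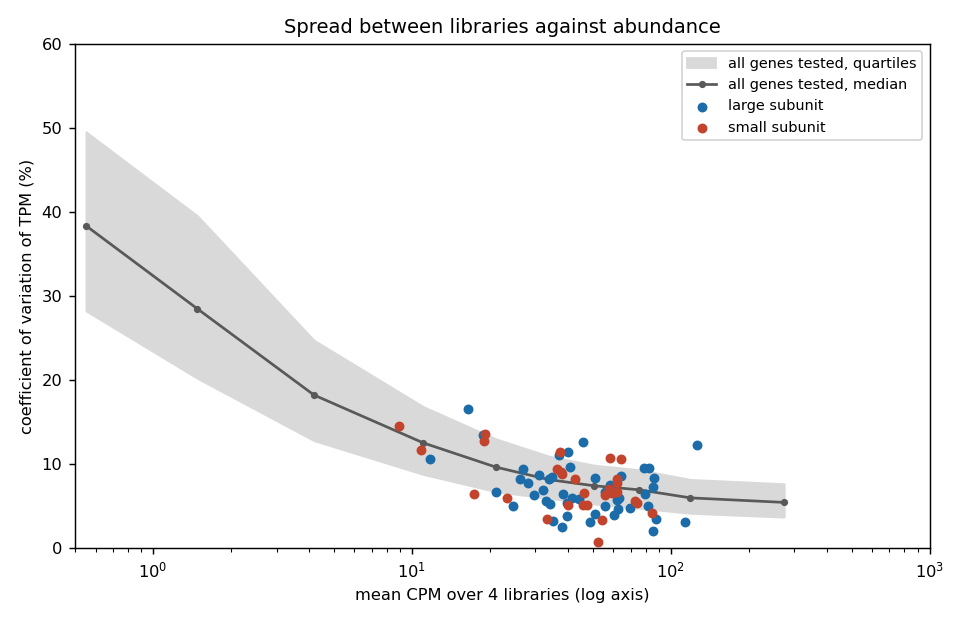
Coefficient of variation of TPM (%) against mean CPM (log axis) for 77 members (large subunit blue, small subunit red) and for all genes tested in 10 equal bins by CPM (grey line, median; band, quartiles). Mrpl53 is left out. The coefficient is under 10% for 63 members, and Mrpl22 is the highest at 16.5%.

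The members shifted together between libraries by small amounts. In log2 CPM after TMM scaling, the median member deviated from its own mean by 0.05, -0.11, -0.01 and 0.06 in replicates 1 to 4. In replicate 2, 69 of 77 members were below their mean, and 60 of 77 were above it in replicate 1 and again in replicate 4. The median of all genes tested was within 0.01 of 0 in each library. The TMM factors behind this scale lay between 0.992 and 1.013. Large and small subunit genes shifted alike, by -0.12 and -0.11 in replicate 2.

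Cytosolic ribosomal protein genes deviated by -0.03, -0.13, 0.10 and 0.07 in the median, and nuclear respiratory chain genes by 0.01, -0.12, 0.04 and 0.05. All 3 groups were thus low in replicate 2 and high in replicate 4, while replicate 1 was high for the mitochondrial and low for the cytosolic ribosomal proteins. One gene of the cytosolic list was called, Rps29, which had 1017, 715, 907 and 1115 TPM (adjusted p = 0.00697, edgeR). By TPM, 40 of the 78 members were highest in replicate 4 and 25 in replicate 1, and 38 were lowest in replicate 2. Replicate 4 had the fewest counts and replicate 3 the most. The part of depth, or of any separate animals or cultures behind the libraries, was not tested. In bulk RNA, a difference in the cells present and a difference in RNA per cell cannot be told apart.

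**Figure D5:**
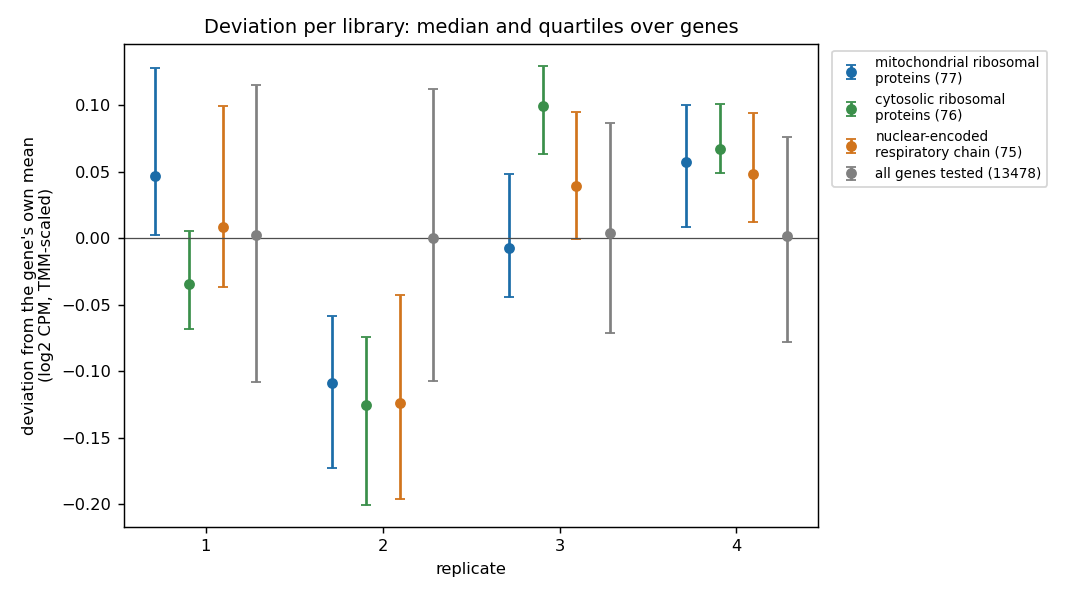
Median deviation of genes from their own mean over the 4 libraries (log2 CPM after TMM scaling; bars, quartiles over genes) in each replicate, for 77 members, 76 cytosolic ribosomal protein genes, 75 nuclear respiratory chain genes and all 13478 genes tested. In replicate 2 the median is -0.11 for members, with all genes near 0.

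The other components of the ribosome were present too. Of 5 mitochondrial ribosomal proteins whose symbols fall outside the naming rule, all reached 1 TPM in every library and none was called by edgeR's test, while 1 had an unadjusted p under 0.05. Chchd1 had 186, 174, 182 and 207 TPM in replicates 1 to 4, Aurkaip1 had 182, 142, 164 and 159 TPM and Gadd45gip1 had 122, 97.7, 114 and 113 TPM. Dap3, a GTP-binding protein of the small subunit, had 62.4, 64.5, 60.1 and 65.8 TPM, and Ptcd3 had 37.8, 45.2, 36.6 and 42.6 TPM. These lie within the range of the members. The 2 mitochondrial ribosomal RNAs were highest in replicate 4, with 660, 752, 729 and 908 TPM for mt-Rnr2 of the large subunit and 566, 698, 670 and 806 TPM for mt-Rnr1 of the small subunit. Neither was called by edgeR (adjusted p = 0.914 for mt-Rnr2 and 0.556 for mt-Rnr1), and 1 of the 2 had an unadjusted p under 0.05. Their levels depend on how RNA was selected, which the labels give in conflicting ways.

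Factors that assemble the ribosome had a lower median than its proteins. All 25 assembly factors of the list reached 1 TPM in every library, with a median of 21.6 TPM, and edgeR called none, with 0 at an unadjusted p under 0.05. The highest were Rbfa, which binds the maturing small subunit, at 151, 132, 138 and 142 TPM in replicates 1 to 4, Mpv17l2 at 60.8 ± 5.31 TPM and Eral1, a chaperone of the small subunit RNA, at 55.6 ± 3.06 TPM. The lowest were Gtpbp10, a GTPase of large subunit maturation, at 4.55 ± 0.61 TPM and Ybey, an endonuclease, at 4.54 ± 0.96 TPM.

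The 15 translation factors had a median of 21.5 TPM, and edgeR called none, with 1 at an unadjusted p under 0.05. Tufm, the elongation factor that delivers tRNAs, led with 162, 151, 156 and 169 TPM, in the range of the highest members. Oxa1l, which inserts new proteins into the inner membrane, had 70.6 ± 2.87 TPM and Tsfm, which recharges Tufm, 53.9 ± 7.25 TPM. The lowest were Guf1 at 10.5 ± 0.90 TPM and the release factor gene Mtrf1 at 8.88 ± 1.16 TPM. The 6 transcription genes ran from Polrmt, the mitochondrial RNA polymerase, at 39.8 ± 4.28 TPM, Tfam at 39.6 ± 2.79 TPM and Tefm at 18.5 ± 1.35 TPM down to Tfb2m at 11.8 ± 1.5 TPM and Mterf1a at 3.69 ± 0.82 TPM. The 10 protein import genes had a median of 116 TPM. They ran from Hspa9, the matrix chaperone, at 501 ± 33.3 TPM and the outer membrane proteins Tomm22 at 278 ± 10.03 TPM and Tomm70a at 169 ± 17.03 TPM down to Timm23 at 41.5 ± 2.79 TPM and Timm17a at 25.9 ± 1.59 TPM. In both lists 0 genes were called by edgeR and 0 had an unadjusted p under 0.05.

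The messenger RNAs that this ribosome translates were measured unevenly. Of 13 mitochondrially encoded messages, 8 reached 1 TPM in every library, led by mt-Co1 at 10126 ± 606 TPM, mt-Cytb at 4106 ± 202 TPM and mt-Nd1 at 3727 ± 173 TPM, and 0 of these 8 were called by edgeR or had an unadjusted p under 0.05. The genes mt-Co2, mt-Co3, mt-Atp6, mt-Atp8 and mt-Nd4l were at or near 0 in the count tables. Only reads with a unique place and a single gene were counted, for all 13 messages. The part of this rule in these 5 values was not tested, and they are not taken as a measure of their transcripts.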

How the data were processed

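The authors deposited raw counts of read pairs per gene, which featureCounts 1.4.6-p4 made on alignments by STAR, counting pairs with both ends mapped over exons in the reverse strand setting (2) of the GENCODE M13 annotation, per the file headers. The assembly is mm10, per the labels. The header sets no option for reads that map to several places or overlap several genes, so these were left out. How reads were trimmed and aligned is not given in the sources used here.

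Names, biotypes and transcript lengths came from GENCODE M21 by gene ID (50376 of 50600 matched, the other 224 held at most 0.0103% of a library's counts). TPM was computed from counts and the deposited merged exon length, and CPM from totals. A pseudocount of 1 TPM was used on the log2 scale. No 2 libraries agreed within sampling noise. The spread of each gene over libraries was tested with edgeR 4.0.16 under R 4.3.3, after filterByExpr (minimum count 10) and TMM scaling, by the goodness-of-fit (upper tail) of an intercept at the trended dispersion. P-values were adjusted over all genes and called under 0.05, and the test was checked on simulated counts. DESeq2 1.42.0 served as an alternative. One group means that no contrast between groups was tested. Named with values per library were the 10 highest and 5 lowest members, the 5 with the largest spread, the S18 relatives and Mrps30. Of each other list the 3 highest, the 2 lowest and any called gene were to be named. Members, lists and motifs were chosen with earlier results of these data known.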

Additional observations from a re-analysis of the deposited data

Results flagged for a closer look

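In each group of 4 libraries, a single value was looked for that stood apart from the other 3, over 83 values (each member's TPM and the summed measures). Chance picks out about 1 in 20, and 2 were found. Mrpl16 stood at 106 TPM in replicate 4, against 99.7, 99.7 and 99.96 TPM in replicates 1 to 3. Mrpl15 stood at 24.7 TPM in replicate 1, against 27.2, 27.2 and 27.4 TPM in replicates 2 to 4. Neither gene was called in edgeR's test (adjusted p = 1.00 for both). Both gaps are small against the levels.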

How the results depend on the processing

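The count of members that varied between libraries was 0 under every alternative run. These were edgeR's RLE scaling in place of TMM, library totals, no filter, DESeq2's dispersion trend and leaving out each replicate. Over all genes, the count of 51 became 17 without replicate 1, 23 without replicate 3 and 33 without replicate 4. Leaving out a replicate gave a range of 17 to 56, with fewer libraries in each fit. The count was 38 with no filter and 61 with DESeq2's dispersion trend. The summed share of 0.655% of TPM was 0.378% as a share of counts, 0.692% without mitochondrially encoded and short genes (under 200 bases) and 0.711% with the 5 proteins outside the naming rule. Without a replicate it ranged from 0.646 to 0.667%. The large minus small difference of 0.40 turned to -0.14 in CPM, was 0.34 with the longest transcript, 0.29 with the APPRIS transcript and 0.11 with the mean of members, and ranged from 0.38 to 0.41 without a replicate. The median member at 66.3 TPM was at 70.2 TPM without mitochondrially encoded and short genes, 74.2 TPM with the longest transcript and 71.3 TPM with the APPRIS transcript. Of the 78 members' levels, 68 moved beyond 1 SD with the longest transcript and 69 with the APPRIS transcript. These counts include a shift common to all genes, since every length was replaced. Mrpl34, whose length stayed at 607 bases, still moved from 244 TPM to 177 TPM with the longest transcript and 170 TPM with the APPRIS transcript. In 3 of them (Mrps16, Mrpl32 and Mrps30) the fall of over 2-fold follows from dividing counts over M13 exons by longer M21 transcripts. The APPRIS lengths, and transcript lengths for shares and levels, were chosen after seeing the data. No paired analysis was possible because there is a single group.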
